A study of Mus musculus with 8 samples.

Results

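The nuclear genes of oxidative phosphorylation were followed through the development of thymic epithelial cells (TEC), the stromal cells that form the cortex and medulla of the thymus. The genes were taken by name: every gene whose symbol begins with Ndufa, Ndufb, Ndufc, Ndufs, Ndufv, Uqcr or Atp5, or with Cox followed by a number from 4 to 8, leaving out -ps names and the Ndufaf assembly factors. This gave 81 of the 27514 genes counted in every library, with 38 named for complex I, 8 for complex III, 18 for complex IV and 17 for complex V. All 81 were found by Ensembl identifier in both gene lists and were protein coding in the annotation, and each had at least 1 molecule in at least 1 library.

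Complexes I, III and IV of the inner mitochondrial membrane pass electrons from NADH and ubiquinol to oxygen and pump protons, and complex V, the ATP synthase, uses the proton gradient to make ATP. Most of their subunits are encoded in the nucleus, made in the cytosol and imported, and they are assembled with a small set of subunits encoded by mitochondrial DNA. Several complex IV subunits, and subunit c of the ATP synthase, exist in more than 1 gene copy, and some copies are best known from heart and skeletal muscle, brown fat, lung or testis. Ndufa4 keeps its historical complex I name although its protein is associated with complex IV, and Atp5s and Atp5sl are names kept from their similarity to the ATP synthase and are not subunits of the core enzyme.

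The cells came from the thymus of C57 B6 (CD45.2) mice of wild-type genotype, without any treatment, and were sorted as DAPI- EpCAM+ CD45-. There was 1 library each of E13.5 TEC (the whole epithelial gate) and of E15.5, E17.5 and newborn (NB) cortical TEC (cTEC, Ly51+ UEA-1-), and 2 libraries each of adult cTEC and of adult medullary TEC (mTEC, Ly51- UEA-1+). E13.5 TEC and the cTEC libraries are together called the cortical line or cortical libraries, although the E13.5 gate was not limited to cortical cells. E13.5, E15.5, NB and replicate 1 of both adult groups were captured as data set 1, and E17.5 and replicate 2 of both adult groups as data set 2. Fetal thymi were dissociated with trypsin and newborn and adult thymi with Liberase followed by a density gradient, so age and dissociation cannot be told apart between fetal and later libraries. An exact age in days or weeks is not given by the labels of the newborn and adult mice, nor is the number of mice pooled per library, so p-values measure only the spread between these libraries.

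The labels were checked against markers of each lineage: 8 of 8 cTEC markers were higher in adult cTEC and 7 of 8 mTEC markers were higher in adult mTEC. Within the adult cTEC gate, 325 of 492 cells of replicate 1 and 426 of 535 cells of replicate 2 had a molecule of the cortical genes Psmb11 or Prss16. The libraries held from 2151147 to 89998087 unique molecular identifiers (UMIs) over 492 to 8350 epithelial-like cells, with both adult cTEC libraries the shallowest. Epithelial-like here means outside clusters named for another tissue, and some groups kept had leading genes of other cell types. In adult cTEC 1 these were a cluster of 108 cells with Flt1, Emcn and Plvap and a cluster of 107 cells with C1qa, C1qb and C1qc. Clusters with Cd3g, Cd8a and Lat held 35 cells of E17.5 and 21 of adult cTEC 2. Cells with a positive proliferation score made up 77.76% of E13.5 TEC and 1.83% and 8.79% of the adult cTEC replicates. Pairs of libraries shared at most 1.9% of the barcodes of the smaller library. Summed markers of thymocytes lay between 11.97 and 25.3 UMIs per 1000000 UMIs of the library (CPM) in the 4 fetal and newborn libraries, at 48.3 and 110 CPM in adult cTEC and at 38.4 and 38.3 CPM in adult mTEC, with the pan-leukocyte gene Ptprc at or below 3.71 CPM in every library. A cluster of 2112 of the E17.5 cells carried haemoglobin RNA (Hbb-bs at 619 CPM against 44.6 CPM in the other E17.5 cells) but also Epcam at 381 CPM, and it was kept as epithelial-like.

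Promoters are shown for the 2 complex I genes called between the lineages (Ndufa11, Ndufc2) and for common and restricted copies of complex IV subunits (Cox6b1 and Cox6b2, Cox8a and Cox8b). Each runs from 250 bases before to 50 bases after the annotated start, 5′ to 3′ on the strand of the gene, from RefSeq on GRCm38.p6. The positions are chr17:56717512-56717811 (plus strand) for Ndufa11, chr7:97399753-97400052 (plus) for Ndufc2, chr7:30626065-30626364 (minus) for Cox6b1, chr7:4753045-4753344 (minus) for Cox6b2, chr19:7217567-7217866 (minus) for Cox8a and chr7:140900397-140900696 (minus) for Cox8b. Capitals mark matches, on either strand, to the motifs named after the sequences.
Ndufa11: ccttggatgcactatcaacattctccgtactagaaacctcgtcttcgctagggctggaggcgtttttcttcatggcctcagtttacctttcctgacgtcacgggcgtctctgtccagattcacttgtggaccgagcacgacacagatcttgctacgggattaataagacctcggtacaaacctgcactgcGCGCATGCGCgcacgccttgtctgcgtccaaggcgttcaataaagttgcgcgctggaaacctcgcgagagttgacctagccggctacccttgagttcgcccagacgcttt
Ndufc2: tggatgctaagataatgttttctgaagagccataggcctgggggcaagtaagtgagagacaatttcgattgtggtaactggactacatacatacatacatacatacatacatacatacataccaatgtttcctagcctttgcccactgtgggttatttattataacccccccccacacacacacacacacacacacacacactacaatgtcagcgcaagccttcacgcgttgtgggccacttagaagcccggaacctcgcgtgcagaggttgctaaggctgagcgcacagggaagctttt
Cox6b1: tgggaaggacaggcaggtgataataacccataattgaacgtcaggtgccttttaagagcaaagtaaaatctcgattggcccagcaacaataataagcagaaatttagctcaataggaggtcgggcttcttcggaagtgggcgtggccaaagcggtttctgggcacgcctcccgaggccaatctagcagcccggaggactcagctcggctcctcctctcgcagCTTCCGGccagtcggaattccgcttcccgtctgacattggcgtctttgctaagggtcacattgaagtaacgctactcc
Cox6b2: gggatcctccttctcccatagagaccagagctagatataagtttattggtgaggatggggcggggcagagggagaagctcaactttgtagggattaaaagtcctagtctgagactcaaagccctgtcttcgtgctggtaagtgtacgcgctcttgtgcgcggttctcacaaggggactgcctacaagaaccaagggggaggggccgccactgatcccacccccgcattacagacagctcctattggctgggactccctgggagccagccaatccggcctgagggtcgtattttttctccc
Cox8a: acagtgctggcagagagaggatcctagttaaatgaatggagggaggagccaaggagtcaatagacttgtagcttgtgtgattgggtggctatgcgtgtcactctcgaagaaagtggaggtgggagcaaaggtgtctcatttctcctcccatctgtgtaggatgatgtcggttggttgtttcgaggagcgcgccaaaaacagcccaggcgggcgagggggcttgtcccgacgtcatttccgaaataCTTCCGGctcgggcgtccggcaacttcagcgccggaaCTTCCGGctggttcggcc
Cox8b: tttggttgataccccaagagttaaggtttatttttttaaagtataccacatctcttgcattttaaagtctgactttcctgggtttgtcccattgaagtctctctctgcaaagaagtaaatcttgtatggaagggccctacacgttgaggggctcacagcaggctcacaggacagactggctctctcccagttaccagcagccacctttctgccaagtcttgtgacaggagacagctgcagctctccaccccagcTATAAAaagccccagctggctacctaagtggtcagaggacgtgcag

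The 5 motifs were searched on both strands in the 67 genes of the 81 that had a promoter in the table and in all 27025 promoters, 1 per gene. The NRF1 motif, bound by a regulator of respiratory genes, was in 20.9% of the 67 and in 4.78% of all promoters. The ETS motif (CCGGAAG), read by GABP, was in 19.4% and 9.12%, the YY1 motif in 13.4% and 1.58%, the E-box (CACGTG) in 10.4% and 7.24%, and TATAAA in 10.4% and 14.16%. The 67 promoters also held more CpG dinucleotides, with a median of 19 against 7, and the motifs with CpG in their letters were not set against promoters of equal CpG content. Of the 6 shown, Ndufa11 held the NRF1 motif, Cox6b1 and Cox8a held the ETS motif, Cox8b held TATAAA, and Ndufc2 and Cox6b2 held none of the motifs. A match describes the letters in this window and is not evidence of binding.

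As a group the 81 genes took a narrow share of the RNA in every library. They made up 3.81% of the UMIs of E13.5 TEC, 3.96% by E15.5, 3.46% by E17.5, 3.52% in NB cTEC, 3.09% and 3.81% for adult cTEC 1 and 2, and 3.16% and 3.51% in adult mTEC 1 and 2. The widest exact binomial 95% interval, that of adult cTEC 1, ran from 3.07% to 3.11%, and these intervals cover counting error only. Both adult cTEC replicates differed by more than the fetal and newborn libraries did among themselves, and the pooled SD of the adult replicate pairs was 0.399 percentage points, so the share had no order by age beyond the spread of replicates. The RNA of the subunits encoded by mitochondrial DNA ranged more widely, from 0.926% in adult cTEC 1 and 2.51% in adult cTEC 2 to 3.12% in adult mTEC 1, among cells already limited to at most 5% mitochondrial UMIs.

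The complexes moved apart to some degree. Genes were summed by name, so Ndufa4 counted toward complex I, at 472 CPM (E17.5) to 1098 CPM (adult cTEC 2). Complex I took 1.20% of UMIs at E13.5, 1.36% by E15.5, 1.26% by E17.5 and 1.38% in NB cTEC, 1.15% and 1.4% for adult cTEC, and 1.05% and 1.13% in adult mTEC, where it was lowest in both data sets. Complex IV was highest at E13.5 and E15.5 (1.08% and 1.06%) and took 0.884% at E17.5, 0.819% in NB cTEC, 0.796% and 0.971% for adult cTEC and 0.872% and 1.01% in adult mTEC. Complex III lay between 0.348% (adult cTEC 1) and 0.453% (E13.5), and complex V between 0.796% (adult cTEC 1) and 1.1% (E15.5).

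**Figure D1:**
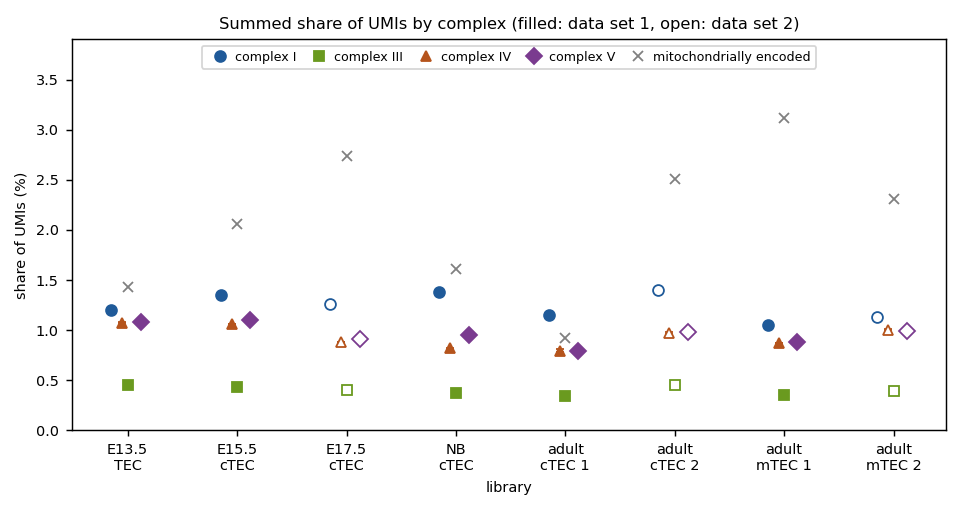
Share of UMIs (y axis, percent, from 0) taken by the summed nuclear genes of each complex in the 8 libraries (x axis), with exact 95% counting intervals that are mostly smaller than the symbols. Filled symbols are data set 1 and open symbols data set 2, and grey crosses give genes encoded by mitochondrial DNA, which range from 0.926% to 3.12%.

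Ribosomal protein genes differed more between the same libraries, from 25.98% of UMIs at E13.5 to 13.14% and 19.16% in adult cTEC, so the share was also taken over the remaining nuclear genes. It was then 5.25% at E13.5, 5.39% by E15.5, 4.88% by E17.5, 4.24% in NB cTEC, with 3.59% and 4.86% in adult cTEC. Adult cTEC 2 lay just below the fetal libraries and adult cTEC 1 below every other library of the line.

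Counts of 3′ UMIs carry no term for transcript length, but how completely a gene was counted can differ between genes and data sets, so levels of different genes are set side by side only approximately. In all 8 libraries 73 of the 81 genes reached 10 CPM and 68 reached 100 CPM, while 7 stayed below 10 CPM throughout. Among the 73, the highest library exceeded the lowest by a median of 1.72-fold, and by more than 2-fold for 21 genes. By mean CPM over the 8 libraries the most abundant were, for complex I, the membrane-arm accessory subunit Ndufa11, for complex III the hinge protein Uqcrh, for complex IV Cox8a, and for complex V Atp5b, the catalytic beta subunit, although none of the 4 led its complex in every library. Cox8a had 1919 CPM at E13.5, 1960 by E15.5, 1616 by E17.5, 1185 in NB, 1139 and 1637 in adult cTEC and 1142 and 1384 in adult mTEC. Atp5b had 1240, 1251, 775, 1276, 936 and 850 CPM in the same order of cortical libraries and 1309 and 1239 CPM in mTEC. Uqcrh had 1237, 1107, 1054, 849, 800 and 827 CPM in the cortical libraries and 689 and 783 CPM in mTEC. Cox8a and Atp5b overlapped between the cortical line and mTEC, and Uqcrh was below every cortical library in both mTEC libraries without passing the test of adult cTEC against mTEC (adjusted p = 0.913). At the other end were Ndufs1, the iron-sulfur subunit of the NADH dehydrogenase module, at 28.9 to 63.3 CPM, and Atp5s at 3.39 to 13.54 CPM.

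Ndufa11 set itself apart from the rest of complex I. It had 627 CPM at E13.5, 1461 by E15.5, 2100 by E17.5 and 2118 in NB cTEC, 1422 and 1686 for adult cTEC, and 499 and 530 in adult mTEC. The mTEC libraries lay below every library of the cortical line, the whole epithelial gate of E13.5 included. All cTEC libraries from E15.5 on were at 1422 CPM or more. The gene made up 5.24% of complex I UMIs at E13.5, 10.8% to 16.7% in the cTEC libraries and 4.73% and 4.70% in mTEC (exact 95% intervals 4.63% to 4.83% and 4.65% to 4.75%). Without it, the complex I share of adult cTEC 1 and mTEC 1 was 1.01% and 1.004%, and that of cTEC 2 and mTEC 2 was 1.23% and 1.07%.

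The level of the gene also differed between cells of 1 library. In the adult cTEC gate, cells in which Psmb11 or Prss16 was detected gave it 0.162% (replicate 1) and 0.182% (replicate 2) of their UMIs, against 0.0847% and 0.0872% in cells without. Cells with a UMI were deeper (medians of 4598 against 2924 UMIs in replicate 1 and 7673 against 5292 in replicate 2), and 25.05% and 29.5% of adult mTEC cells, at medians of 9470 and 11354 UMIs, also had such a UMI. With each cell thinned to 2000 UMIs, an alternative chosen after seeing the data that left out 65 and 13 shallower cTEC cells, and 0 and 123 mTEC cells, 56.2% and 71.6% of adult cTEC and 5.93% and 6.54% of adult mTEC cells had a UMI. Ndufa11 then took 0.182% and 0.191% in adult cTEC cells with a UMI, against 0.086% and 0.0929% in those without. In adult mTEC the same split gave 0.0494% and 0.0556%, against 0.0499% and 0.0528%. Clusters of cells that were cTEC-like by their markers had 1997 and 2167 CPM in adult cTEC 1, 2461 CPM in adult cTEC 2, and 968 and 1341 CPM at E13.5, where the other clusters had 290 to 654 CPM. The lowest clusters of the adult cTEC libraries, both with Bpifa1 and Wfdc2 among their 10 leading genes, had 406 and 494 CPM. Clusters were drawn from the expression of all variable genes, so these cluster values describe the cells and carry no test.

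**Figure D2:**
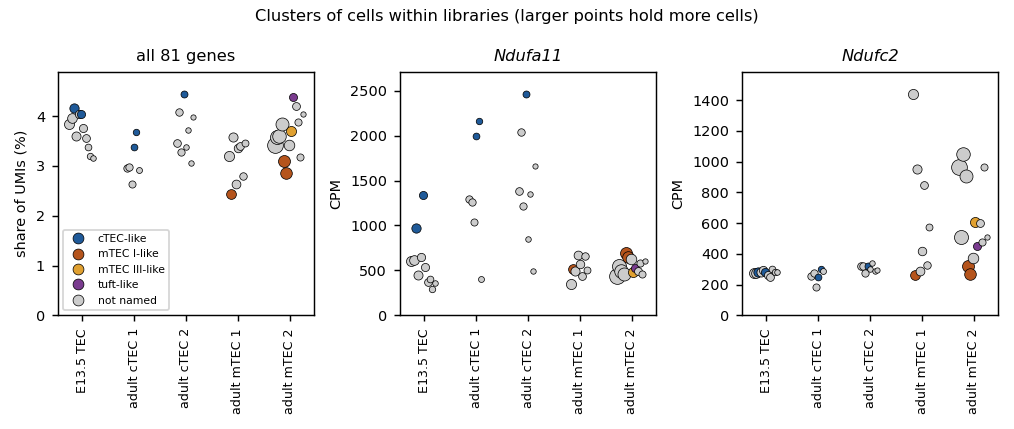
Each point is a cluster of cells within 1 of 5 libraries (x axis), coloured by its name where it has one, with larger points for more cells. From left to right the y axis gives the share of UMIs of all 81 genes (percent), Ndufa11 (CPM) and Ndufc2 (CPM). In the 3 libraries with cTEC-like clusters (E13.5 and both adult cTEC), these hold the highest Ndufa11 values, and Ndufc2 reaches 1439 CPM in an unnamed mTEC cluster while the mTEC I-like clusters stay at 262 to 322 CPM.

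Adult cTEC and adult mTEC were compared to ask which genes differ between the lineages. Most of the respiratory genes did not pass the test: 6 of the 79 tested did, with 2 higher in cTEC and 4 higher in mTEC, where 31.7% of all 15626 genes tested were called (edgeR quasi-likelihood test with a term for the data set, Benjamini-Hochberg threshold 0.05). The median log2 difference, cTEC minus mTEC, was −0.07 over the 79 genes and −0.14 over all genes. The log2 difference of Ndufa11 was 1.52 (SE 0.42, adjusted p = 0.00434). Without mTEC replicate 1 or 2 the difference was 1.38 and 1.59 and the call was lost (adjusted p = 0.311 and 0.232), in fits where the term for the data set could not be kept, mTEC was 1 library, and the cTEC pair alone gave the spread. The other 5 calls were Ndufc2, Atp5k and 3 complex IV copies of low level. With DESeq2, where 16% of all genes were called, 4 of the respiratory genes passed as higher and 3 as lower in cTEC. The 3 complex IV copies were not among those. Markers of other cells also differed between the gates: the summed mesenchymal list had 324 and 512 CPM in adult cTEC, 68.8 and 100 CPM in adult mTEC and 11.4 to 40.9 CPM in the fetal and newborn libraries (2 of 7 tested genes higher and 2 lower in cTEC), while the erythroid list had 84.9 to 109 CPM in adult mTEC and 1.39 to 2.23 CPM in adult cTEC (5 of 5 tested genes lower in cTEC). The myeloid list, mostly Cd74, had 18042 to 21651 CPM in adult mTEC and 13313 to 13347 CPM in adult cTEC (3 of 8 genes lower in cTEC), and the endothelial list 24.1 to 32.4 CPM and 21.3 to 81.4 CPM. The dissociation stress list took 1.97% and 1.16% of UMIs in adult cTEC and 1.03% and 0.566% in adult mTEC (7 of 16 genes higher in cTEC, 0 lower in edgeR's test). The part of these lists in the differences was not tested.

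Ndufc2, a small membrane-arm subunit of complex I, went the other way. Its level was 278 CPM at E13.5, 346 by E15.5, 299 by E17.5, 359 in NB cTEC, 257 and 313 for adult cTEC and 757 and 700 in adult mTEC. Both mTEC libraries were above all 6 libraries of the cortical line, which ranged from 257 to 359 CPM. The log2 difference was −1.43 (SE 0.41, adjusted p = 0.00569), and without mTEC replicate 1 or 2 it was −1.47 and −1.46 with the call lost in the same kind of fit (adjusted p = 0.137 and 0.180). Within mTEC the level was not even: it was 262 CPM in the mTEC I-like cluster of replicate 1 and 322 and 272 CPM in those of replicate 2, and 1439 CPM in a replicate 1 cluster led by Fabp6 and Prss29 and 964 and 1048 CPM in replicate 2 clusters led by Mt4 and by Thrsp. Thrsp is also the neighbour of Ndufc2, on the opposite strand with a gap of 5135 bases, and it had 133 and 121 CPM in mTEC and at most 16.7 CPM elsewhere. A processed pseudogene overlaps Ndufc2 by 188 bases on the same strand and was not counted.

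Atp5k, subunit e of the ATP synthase, which helps to form its dimers, was higher in cTEC by 1.1 (SE 0.41, adjusted p = 0.0352). Its levels were 510 and 717 CPM in adult cTEC and 157 and 457 CPM in adult mTEC, so the groups did not overlap but 510 and 457 CPM lay close together. Earlier it had 393 CPM at E13.5, 375 by E15.5, 520 by E17.5 and 191 in NB cTEC. The call was lost without the term for the data set (adjusted p = 0.293), with no filter on low counts (0.0862), in cTEC cells with a Psmb11 or Prss16 UMI (adjusted p = 0.0596) and without any 1 of the 4 libraries (0.140 to 0.887).

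Uqcrb, the ubiquinone-binding subunit of complex III, went with the data set in the cortical line and not in the medulla. It had 207, 223, 267 and 192 CPM in the data set 1 libraries E13.5, E15.5, NB and adult cTEC 1, and 609 and 726 CPM in the data set 2 libraries E17.5 and adult cTEC 2. Adult mTEC had 669 CPM in data set 1 and 584 CPM in data set 2. The log2 ratio of adult cTEC to mTEC (CPM + 10) was −1.75 within data set 1 and 0.31 within data set 2, and the gene did not pass the lineage test (adjusted p = 0.192). In all, 13 of 74 measured genes had the cortical libraries of data set 2 all above or all below those of data set 1, where 23.4% of all measured genes did, and Uqcrb was the one with a gap of over 2-fold. The data sets were counted against different gene lists, and the part of that in the gap was not tested.

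**Figure D3:**
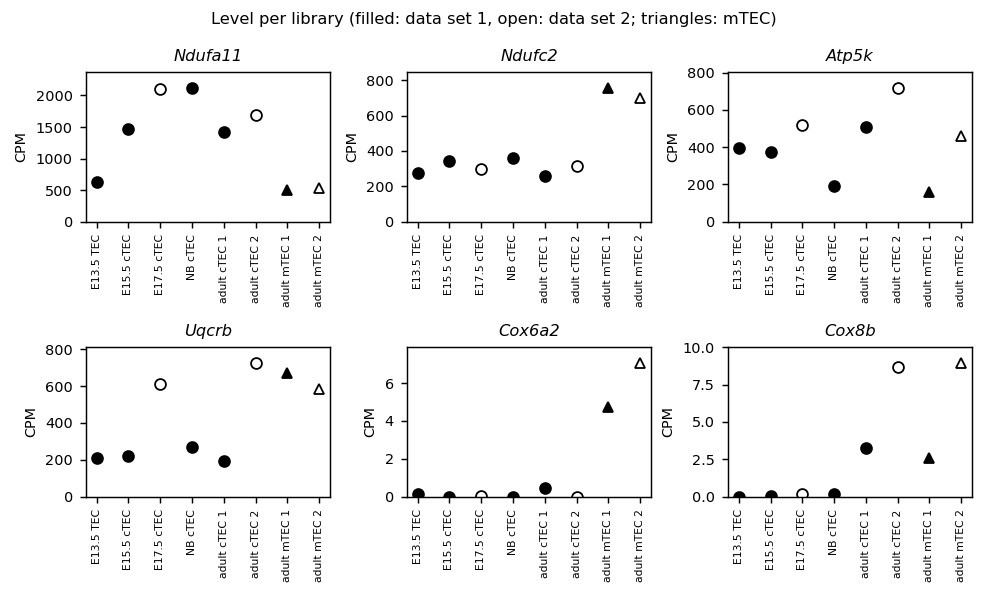
Level in CPM (y axes, each from 0) of 6 genes in the 8 libraries (x axis), with filled symbols for data set 1, open symbols for data set 2 and triangles for mTEC. Ndufa11 is lowest (499 and 530 CPM) and Ndufc2 highest (757 and 700 CPM) in the mTEC libraries, while Uqcrb is at 192 to 267 CPM in the 4 cortical-line libraries of data set 1 and at 584 to 726 CPM in the other 4 libraries.

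For most complex IV subunits with alternative copies, nearly all UMIs came from the common copy. Cox4i1, Cox6a1, Cox7b and Cox8a gave at least 99% of the UMIs of their sets in every library and Cox6b1 93.7% to 98.1%. The exception was the Cox7a set, where Cox7a2 gave 53.9% to 70.6% and Cox7a2l, whose protein is known as a factor of respiratory supercomplexes, gave 29.4% to 45.8%, with 285 to 608 CPM. Cox4i1, Cox6a1, Cox7a2 and Cox8a, the widely expressed copies, each had at least 504 CPM in every library, and Cox6b1 had 764 to 957 CPM. The restricted copies Cox4i2 (lung), Cox6a2, Cox7a1 and Cox8b (heart, muscle and brown fat) reached at most 9.19 CPM in any library, and Cox7b2 and Cox8c (testis) at most 0.550 and 0.173 CPM, too low for any test. The 3 genes for subunit c of the ATP synthase, which encode the same mature protein, kept to similar proportions: Atp5g1 gave 33.3% to 41.4% of their summed UMIs, Atp5g2 38.0% to 47.4% and Atp5g3 17.4% to 22.9%. Ndufa4l2, the hypoxia-linked copy of Ndufa4, had at most 4.77 CPM.

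Of these restricted copies, 3 were higher in adult mTEC than in adult cTEC. Cox6a2 had 4.75 and 7.07 CPM in mTEC (555 UMIs) against 0.465 and 0 CPM in cTEC (1 UMI). The ratio was 40.9, with an exact 95% counting interval from 7.32 to 1620, and the test gave an adjusted p of 0.000408. Cox7a1 had 3.07 and 7.53 CPM in mTEC (558 UMIs) against 0 and 0.495 CPM in cTEC (2 UMIs), a ratio of 20.6 (5.67 to 170, adjusted p = 0.00128). Cox4i2 had 4.51 and 7.32 CPM in mTEC against 0.930 and 1.24 CPM in cTEC, a ratio of 5.98 (2.89 to 14.95, adjusted p = 0.0113). Cox6a2 and Cox7a1 passed the filter on low counts through the mTEC libraries alone, so their place among the genes tested is no support for the counts by lineage. With no such filter their adjusted p was 4.23e-05 and 0.000352. With DESeq2 none of these 3 calls was kept (adjusted p = 0.0518, 0.0630 and 0.180). Cox6a2 lost its call without cTEC replicate 2 or mTEC replicate 2 (0.0600 and 0.149), Cox7a1 in 3 of 4 fits that left out 1 library (0.0896 to 0.340) and Cox4i2 in all 4 (0.0555 to 0.359). Cox4i2 and Cox7a1 were also present at E13.5, at 9.19 and 3.52 CPM. Cox6a2 and Cox4i2 were highest in the mTEC clusters led by Fabp6 and Prss29 (replicate 1) and by Mt4 and Gip (replicate 2). Cox6a2 reached 19.7 and 23.6 CPM there, 14.6 CPM in the tuft-like cluster of replicate 2 and 0 to 1.54 CPM in the mTEC I-like clusters. Cox7a1 was spread more evenly, with 6.48 and 15.8 CPM in the same clusters, 5.39 CPM in a replicate 1 cluster led by Spink1, and 13.3, 12.3 and 11.6 CPM in the Guca2b-led, tuft-like and mTEC III-like clusters of replicate 2.

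Stage was followed first by a slope over the 6 cortical-line libraries, with a term for the data set. The earliest library, E13.5, was the whole epithelial gate, so the change of gate there cannot be told apart from age. Of 78 genes tested (all but Cox6a2, Cox7b2 and Cox8c, which did not pass the filter on low counts), 1 passed, where 7.58% of all 14341 genes tested were called, and 4 had an unadjusted p under 0.05. The slope was negative for 59 of the 78, with a median of −0.05 per stage against 0.00 over all genes. By complex, 24 of 38 slopes were negative for complex I, 7 of 8 for complex III, 14 of 15 for complex IV and 14 of 17 for complex V. None of these declines passed the threshold in this fit. With adult cTEC limited to cells with a Psmb11 or Prss16 UMI, 1 decline passed in edgeR, and 2 passed in DESeq2. Without adult cTEC replicate 1 the slope was negative for 41 of 77 genes, and the calls over all genes fell to 16.

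The gene past the threshold was Cox8b, a copy of subunit 8 known from heart and brown fat. It had 0 CPM at E13.5 (0 UMIs, where 3 UMIs, the limit used for a count of 0, are worth 0.207 CPM), 0.0728 by E15.5, 0.200 by E17.5 and 0.173 in NB cTEC, whereas the adult cTEC replicates had 3.25 and 8.66 CPM. Only the adult libraries stood above 1 CPM. Summed counts were 42 UMIs in adult cTEC and 24 in the 4 earlier libraries, a ratio of 43.8 (exact 95% counting interval 25.9 to 75.7), and the slope was 2.13 per stage (SE 0.39, adjusted p = 0.0301). The gene passed the filter on low counts through the adult libraries alone, and with no filter its adjusted p was 0.0303. Adult mTEC had 2.59 and 8.96 CPM, and their ratio to adult cTEC was 1.13 (0.830 to 1.59). The call was lost among cells with a low proliferation score (adjusted p = 0.0650). It was also not kept without either adult cTEC replicate or in data set 1 alone, where the adult stage is 1 library. The dissociation stress list rose over the same libraries, from 0.0544% to 0.0979% of UMIs in the fetal libraries to 1.14% in NB and 1.97% and 1.16% in adult cTEC, with 14 of its 16 genes past the threshold, and 5 of 12 thymocyte and 4 of 7 myeloid markers tested also rose. The mTEC list had 185 to 880 CPM in the fetal and newborn libraries and 6081 and 1262 CPM in adult cTEC, with 1 of 8 genes past the threshold and Ccl21a at 5417 CPM in adult cTEC 1. The part of these lists in the Cox8b slope was not tested.

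Steps between single libraries within a data set have no replicate and no test. The step from E13.5 to E15.5 also changed the sort gate, which cannot be told apart from age. From E13.5 to E15.5 the median log2 ratio (CPM + 10) over the measured genes was 0.04, against −0.05 over all genes, with 45 of 74 higher. From E15.5 to NB it was −0.10, against −0.01, and the log2 ratio of the summed CPM was −0.37 for complex IV, −0.23 for complex III, −0.22 for complex V and 0.03 for complex I. Over the remaining nuclear genes, with ribosomal protein and mitochondrially encoded genes out of the total, these 4 values were −0.55, −0.41, −0.40 and −0.15, so the sign for complex I depended on the total. In the step to the adult the median was −0.31 from NB to adult cTEC 1, against −0.07 over all genes, and 0.13 from E17.5 to adult cTEC 2, against 0.02. The log2 ratio of the summed CPM was −0.19 and 0.14 in these steps, and −0.24 and −0.0079 over the remaining nuclear genes, so the higher level of adult cTEC 2 was not seen with that total.

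A ratio of 2-fold or more was reached by 1 of 74 genes from E13.5 to E15.5 (7.27% of all genes), 0 of 74 from E15.5 to NB (5.21%), 4 of 74 from NB to adult (11.6%) and 1 of 73 from E17.5 to adult (9.09%). The first was Ndufa11, up by 1.21, which did not reach 2-fold among resting cells alone, where it went from 882 to 1609 CPM. That step also changed the sort gate, and the cTEC-like clusters of E13.5 had 968 and 1341 CPM of Ndufa11. From NB to adult cTEC 1, Atp5k went from 191 to 510 CPM and Ndufa3, a small complex I subunit, from 178 to 370 CPM. Over the same step Atp5o, the stalk subunit of the ATP synthase that confers oligomycin sensitivity, went from 497 to 223 CPM and Cox6b2 from 53.1 to 14.4 CPM. In data set 2, Ndufa4 went from 472 CPM at E17.5 to 1098 CPM in adult cTEC. In the other data set the step to the adult was under 2-fold for these 5 genes: Ndufa4 went from 724 to 698 CPM from NB to adult, and Atp5k from 520 to 717, Ndufa3 from 401 to 567, Atp5o from 396 to 334 and Cox6b2 from 44.8 to 38.4 CPM from E17.5 to adult.

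**Figure D4:**
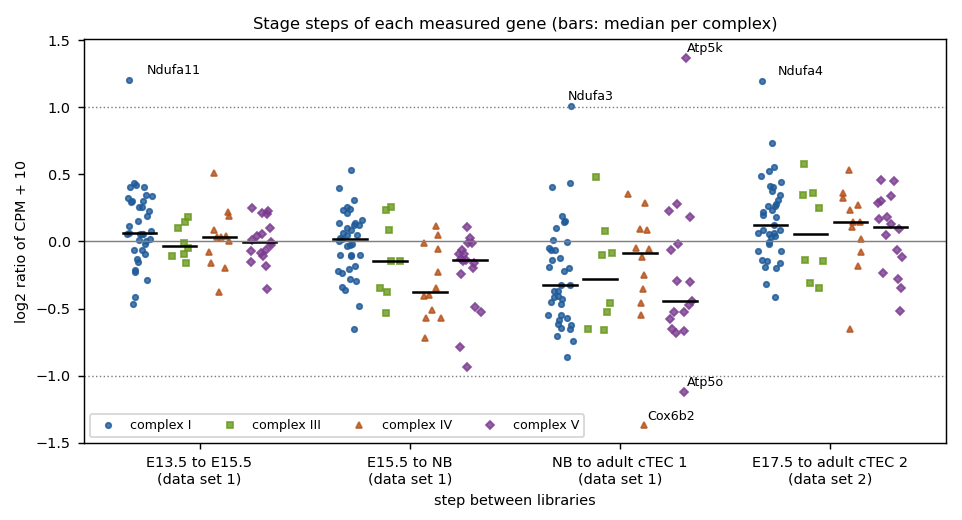
Log2 ratio of CPM + 10 (y axis) for each measured gene in 4 steps between single libraries (x axis), by complex, with black bars at the median of each complex and dotted lines at 2-fold. Most genes lie within 2-fold, the bars of NB to adult in data set 1 are below 0 and those of E17.5 to adult in data set 2 above 0.

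Cycling cells were compared with resting cells of the same library, in the 7 libraries with at least 20 cells of each kind. Of 79 genes tested, 3 passed, where 25.5% of all 17003 genes tested were called. In simulated data 16.4% of the calls of this fit were false, more than its threshold of 0.05 allows. The median log2 difference was −0.01 against −0.16 over all genes. Ndufa6, an accessory subunit of complex I, was lower in cycling cells by 0.39 on the log2 scale (value −0.39, SE 0.12, adjusted p = 0.0251). Its resting and cycling levels were 376 and 277 CPM at E13.5, 386 and 293 by E15.5, 463 and 372 by E17.5, 313 and 249 in NB, 417 and 289 in adult cTEC 2, 266 and 199 in mTEC 1 and 304 and 222 in mTEC 2. It was thus lower in cycling cells of 7 of 7 libraries, and the call was lost without adult cTEC replicate 2 (adjusted p = 0.0637). Cox8b was lower in cycling cells (log2 difference −2.14, SE 0.56, adjusted p = 0.0131), and lost its call with DESeq2 (adjusted p = 0.0528) and without mTEC replicate 2 (0.143). It had 0 and 1.87 CPM in cycling cells of mTEC 1 and 2, against 3.17 and 10.9 CPM in resting cells, and 0 against 9.78 CPM in adult cTEC 2. At E13.5, E15.5, E17.5 and in NB it had at most 3 UMIs in cycling cells and at most 15 in resting cells. The gene met the filter on low counts mainly through resting cells of the adult libraries, so its place among the genes tested is no support for this call. In mTEC, 22 of 43 and 373 of 603 Cox8b UMIs came from 1 cluster per replicate with 0.91% and 1.59% cycling cells. The count differed between fits: 14 genes passed with RLE size factors (3 higher, 11 lower) and 18 with DESeq2 (3 higher, 15 lower), with the median of all genes moving from −0.16 to −0.22 and −0.14.

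Cox6b2, the copy of subunit 6b best known from sperm, was the third, higher in cycling cells by 0.69 (SE 0.19, adjusted p = 0.0141). Its levels in resting and cycling cells were 26.4 and 42.5 CPM at E13.5, 36.5 and 68.8 by E15.5, 35.7 and 87.3 by E17.5, 44.9 and 104 in NB and 31.0 and 95.03 in adult cTEC 2. In mTEC they were 17.498 and 9.74 CPM (replicate 1) and 19.5 and 15.6 CPM (replicate 2). The gene was higher in cycling cells of all 5 cortical-line libraries and lower in both mTEC libraries. The call was lost with RLE or DESeq2 (adjusted p = 0.0550 and 0.0860) and without E13.5, E15.5, NB or E17.5 (0.0933, 0.104, 0.123 and 0.129). Among mTEC 2 cells, a cluster of 23 cells led by Dynlrb2, Meig1 and Ccdc153, genes of motile cilia, had 314 CPM of Cox6b2, where the other clusters had 4.55 to 27.0 CPM.

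The difference in the cycling effect between mTEC and the other libraries was then tested for every gene, a test added after the pattern had been seen. In simulated data the fit of cycling against resting cells made more false calls than its threshold allows, and the fit of this difference was not simulated. For Cox6b2 the effect was lower in mTEC by 1.19 on the log2 scale (value −1.19, SE 0.21, adjusted p = 0.000593), and for Ndufa11 it was higher in mTEC by 0.88 (SE 0.15, adjusted p = 0.000474). The difference for Ndufa11 was 0.55 with RLE or DESeq2 and 0.54 without E17.5. Ndufa11 was lower in cycling than in resting cells in the cortical line (579 against 882 CPM at E13.5, 1693 against 2187 at E17.5, 1378 against 1726 in adult cTEC 2), and about level in mTEC (520 against 494 and 552 against 524). Over all 7 libraries 8 of 8 cTEC markers, 7 of 16 dissociation stress genes and 5 of 8 myeloid markers were lower in cycling cells and 1 stress gene was higher, and their part in these differences was not tested. In all, 57 of 79 genes passed, 54 of them with a higher effect in mTEC, where 23.2% of all genes were called. The median was 0.57 over the 79 genes and 0.11 over all genes with TMM, and 0.24 and −0.23 with RLE. The count differed between fits, with 18 higher and 3 lower under RLE and 37 higher and 3 lower under DESeq2, and 18 higher and 2 lower were shared by the 3 fits.

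The summed share of the 81 genes was also compared between resting and cycling cells. Resting and cycling cells gave 3.98% and 3.78% of their UMIs to these genes at E13.5, 4.03% and 3.83% at E15.5, 3.50% and 3.299% at E17.5, 3.56% and 3.29% in NB and 3.81% and 3.76% in adult cTEC 2. In mTEC the cycling cells were the higher ones, with 3.10% and 3.43% in replicate 1 and 3.50% and 3.55% in replicate 2. By complex, the cycling minus resting share of mTEC 2 was above 0 for complex V alone (0.114 percentage points) and was −0.0043, −0.0039 and −0.059 for complexes I, III and IV, whereas all 4 were above 0 in mTEC 1 (0.0145 to 0.197). Complex V was also higher in cycling cells of adult cTEC 2, by 0.0354. The cycling and resting cells of mTEC lay largely in different clusters. The mTEC I-like clusters with the lowest shares (2.44% and 2.86%) held 0.34% and 1.63% cycling cells, while the clusters with the most cycling cells in each replicate (97.67% and 53.92%) had shares of 3.46% and 3.59%. Of the other clusters of replicate 2, 5 with 0.44% to 1.25% cycling cells had shares of 3.70% to 4.38%, above that of its cycling cluster. The part of this makeup in the mTEC differences, those of single genes included, was not tested. Cycling cells were deeper than resting cells in all 7 libraries, most of all in mTEC (medians of 16299.5 against 8841 UMIs in replicate 1 and 18589 against 10477 in replicate 2, beside 7946 against 5442 at E13.5), and the part of depth was not tested.

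**Figure D5:**
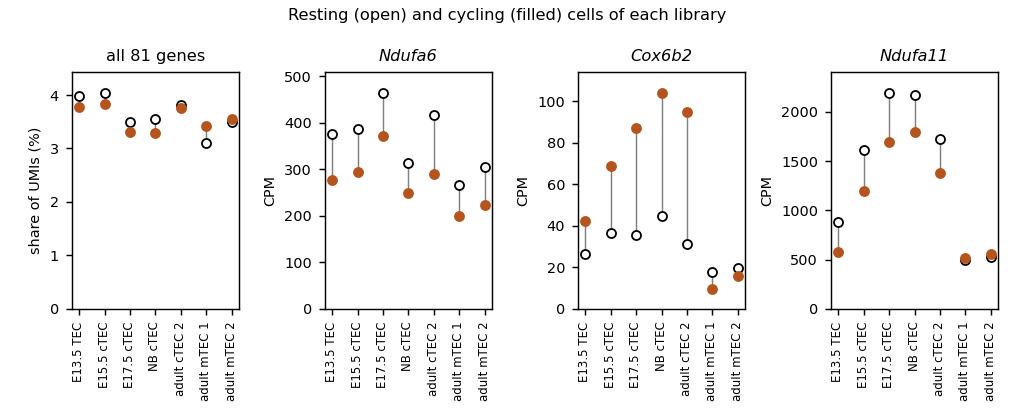
Resting cells (open) and cycling cells (filled) of the 7 libraries with at least 20 cells of each (x axis), as share of UMIs of all 81 genes (percent) and as CPM of Ndufa6, Cox6b2 and Ndufa11, each y axis from 0. Ndufa6 is lower in cycling cells of every library shown, and Cox6b2 is higher in cycling cells of the 5 cortical-line libraries and lower in those of both mTEC libraries.

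Within adult libraries the total share also varied between clusters of cells. In adult cTEC 1 the cTEC-like clusters had 3.37% and 3.68% and the others 2.64% to 2.97%, and in adult cTEC 2 the cTEC-like cluster had 4.44% and the others 3.05% to 4.08%. The others of adult cTEC 1 include a cluster with Flt1, Emcn and Plvap among its leading genes (2.955%). They also include a cluster led by C1qa, C1qb and C1qc (2.968%). Cells of the adult cTEC gate with a Psmb11 or Prss16 UMI had 3.205% and 3.91%, against 2.75% and 3.16% in those without. In mTEC the Ccl21a and Ccl11 expressing mTEC I-like clusters were low (2.44% in replicate 1, 3.10% and 2.86% in replicate 2), the mTEC III-like cluster, with markers of cornified epithelium, had 3.70%, and the tuft-like cluster, with markers of chemosensory cells, had 4.38%. That cluster was of replicate 2, where one led by Guca2b and Apoc3, genes of gut epithelium, had 4.20%. An unnamed replicate 1 cluster led by Rgs13, Alox5ap and Lrmp, which also lead the tuft-like cluster, had 3.35%, with Cox6a2 and Cox7a1 both at 0.431 CPM.

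Other genes of mitochondrial respiration were read from lists chosen by function, beside calls for 7.58% of all genes in the slope, 31.7% between lineages and 25.5% between cycling and resting cells. Of complex II and the cytochrome c group, 0 of 6 passed in edgeR in the stage slope or between lineages (0 and 2 had an unadjusted p under 0.05), and 1 of 6 was higher in cycling cells: Cycs, the mobile electron carrier, by 0.53 (SE 0.13, adjusted p = 0.00847). Cycs had 190 CPM at E13.5, 85.1, 83.7 and 69.3 CPM at E15.5, E17.5 and in NB, 126 and 176 CPM in adult cTEC and 209 and 315 CPM in adult mTEC. Of the 13 genes encoded by mitochondrial DNA, 0 passed in the slope in edgeR (2 had an unadjusted p under 0.05), 2 were higher and 2 lower in cTEC, and 0 passed between cycling and resting cells (1 under 0.05). Of 45 assembly factors tested, 0 rose and 2 fell with stage, 1 was higher and 1 lower in cTEC, and 2 were higher and 2 lower in cycling cells. Of 16 tricarboxylic acid cycle genes, 0 rose and 1 fell with stage, 3 were lower in cTEC and 2 higher in cycling cells.

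Regulators of mitochondrial gene expression were followed beside their targets. Of 15 such genes, none passed in the stage slope in edgeR (7.58% of all genes did), where 5 had an unadjusted p under 0.05. Between lineages 31.7% of all genes were called, and between cycling and resting cells 25.5%. Myc had 16.1, 17.1, 17.3, 26.8, 36.7 and 45.8 CPM from E13.5 to the adult cTEC replicates (slope 0.37, SE 0.09, adjusted p = 0.0549). Gabpa, the DNA-binding subunit of GABP, was higher in cTEC by 1.13 (SE 0.43, adjusted p = 0.0393), at 17.2 and 22.3 CPM against 10.1 and 7.397 CPM, and the coactivator gene Ppargc1b by 1.24 (SE 0.49, adjusted p = 0.0499), at 15.8 and 9.65 CPM against 4.75 and 5.15 CPM. In cycling cells 4 were higher (Gabpb1 by 0.62, Nrf1 by 0.51, Hcfc1 by 0.50 and Pprc1 by 0.47) and 2 lower (Ppargc1b by 0.54 and Esrra by 0.41 on the log2 scale, values −0.54 and −0.41).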

How the data were processed

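Single cells of 8 libraries were captured with Chromium v2 chemistry, and the authors deposited UMI counts per gene and cell, not normalized. Per the labels' processing notes the reads were processed with Cell Ranger 2.0.1, STAR 2.5.1b and bcl2fastq 2.17 on mm10, while files of data set 2 give 3.0.1 as the Cell Ranger version. Which libraries form each data set was taken from the study's methods.

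Of 28334 deposited cells, 25750 had at most 5% mitochondrial UMIs and at most 5000 genes, and 25434 were in clusters (scanpy 1.11.5, Leiden resolution 0.8) not named for another tissue. The mitochondrial limit removed 10.89% and 15.25% of mTEC cells and at most 7.59% elsewhere. No doublet caller was run. Counts were summed per library over the 27514 genes found in both gene lists, and CPM is per 1000000 of these UMIs. Libraries held 2151147 to 89998087 UMIs. Tests were edgeR 4.0.16 quasi-likelihood fits in R 4.3.3 (low-count filter, TMM) with Benjamini-Hochberg adjustment over all genes: a stage slope over 6 cortical-line libraries with a data set term, adult cTEC against mTEC over 4 libraries with a data set term, and cycling (proliferation score above 0) against resting cells with a library block over 7 libraries. Adult cTEC 1, with 9 cycling cells, was left out of the last fit. Steps between single libraries have no test. Scripts were tested on simulated data, where the cycling fit made more false calls than its threshold allows and the other 2 fits lay close to it. Alternatives included RLE scaling, DESeq2 1.42.0, other cell filters and leaving out libraries.

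The genes and lists were chosen with earlier results of these data known. Genes named in the text were the 5 of largest change in each direction past the threshold with average log2 CPM above 5, those past 2-fold in a step, the most abundant of each complex by mean CPM, and the sets of alternative copies. Cox8b, Cox6a2, Cox7a1 and Cox4i2 are named as alternative copies, Uqcrb for its gap between data sets, and Ndufs1 and Atp5s as low examples, the last 3 chosen after their values were seen.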

Additional observations from a re-analysis of the deposited data

Results flagged for a closer look

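The cycling effect in adult mTEC was set against that in the other libraries for the share of the 81 genes and for 3 genes, in tests added after the pattern had been seen. The cycling minus resting share of UMIs of the 81 genes was positive in both mTEC libraries (mean 0.186 percentage points) and negative in the 5 others (mean −0.184), a difference of 0.370 points (exact two-sided permutation test, p = 0.0952, the smallest that 2 against 5 libraries allow). This comparison was chosen after the values were seen, and in mTEC 2 complex V alone was above 0. The fitted difference of the cycling effect, mTEC minus the other libraries on the log2 scale, was 0.88 for Ndufa11 (0.54 to 0.86 over the alternatives), −1.19 for Cox6b2 (−1.62 to −1.14) and −2.78 for Cox4i2 (−3.76 to −2.48). These 3 genes, and with a higher effect in mTEC also Atp5a1, Ndufa10 and Ndufa12, passed the threshold in each of the 10 fits run (edgeR's quasi-likelihood test with TMM or RLE, DESeq2, and edgeR without each of the 7 libraries). In the fits without an mTEC replicate, mTEC was 1 library and the other libraries alone gave the spread. Cox4i2 rests on few molecules, with 75 and 493 UMIs in the mTEC replicates, of which 2 and 31 were in cycling cells, and 0 UMIs in cycling cells of NB and adult cTEC 2. In mTEC, 58 and 312 of its UMIs came from 1 cluster per replicate with 0.91% and 1.59% cycling cells, and the part of cluster makeup was not tested.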

How the results depend on the processing

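With RLE or DESeq2 14 or 18 genes passed between cycling and resting cells in place of 3, and 2 to 11 when 1 library was left out. For the difference of that effect in mTEC, 57 genes passed with TMM, 21 with RLE, and 9 to 53 when 1 library was left out. In the stage slope 1 gene passed, against 3 with DESeq2, 2 with adult cTEC cells holding a Psmb11 or Prss16 UMI, 0 in data set 1 alone, 0 in cells of low proliferation score, and 0 to 1 without E13.5 or either adult cTEC replicate. Over all genes the slope gave 1087 calls, against 2836 with DESeq2, 413 in data set 1 alone, 663 in cells of low score and 16 and 456 without adult cTEC replicates 1 and 2. Between lineages 6 genes passed, and 0 to 3 when 1 library was left out, where the data set term was dropped. Over all genes the lineage calls were 4954, against 2505 with DESeq2 and 1020 to 2874 without 1 library.

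Library numbers do not pair samples by label. The data set term of the lineage fit acts as the replicate block, and without that block 5 genes passed, Atp5k being lost (log2 0.93, adjusted p = 0.293).

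With ribosomal protein and mitochondrially encoded genes taken out of the total, the share of the 81 genes was 5.25% (E13.5), 5.39% (E15.5), 4.88% (E17.5), 4.24% (NB), 3.59% and 4.86% (adult cTEC) and 3.96% and 4.64% (adult mTEC). The summed step from E15.5 to NB was then −0.35 in place of −0.17, and genes past 2-fold numbered 2 from E13.5 to E15.5, 1 from E15.5 to NB and 2 from E17.5 to adult. In cells of low proliferation score 0 passed 2-fold from E13.5 to E15.5. The summed step from E17.5 to adult cTEC 2 was −0.0079 in place of 0.14, within the spread of replicates (0.168), and complex I from E15.5 to NB was −0.15 in place of 0.03. No value past a test's threshold changed direction. The causes were not tested. Leaving out the haemoglobin or the Hhex and Nkx2-1 clusters, alternatives chosen after seeing the data, left 1 gene past the threshold in the stage slope.

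Each stage before the adult is 1 library, so stage and library cannot be told apart there. Adult cTEC, with 492 and 535 cells, set the depth of the restricted copies, where 3 UMIs are worth 1.39 and 0.743 CPM.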

Other observations

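Outside the 81 genes, 2 genes with a large gap between the data sets were chosen here after their values were seen. Fau had 18.5 to 107 CPM in the libraries of data set 1 and 2581 to 3737 CPM in those of data set 2. Nnt, the mitochondrial nicotinamide nucleotide transhydrogenase, had 6.04 to 17.3 CPM in data set 1 and 0.654 to 1.73 CPM in data set 2. Among 10019 measured genes, 81 had a gap of over 2-fold between the cortical-line libraries of the data sets, and for 21 of these, Uqcrb included, adult mTEC 1 lay nearer to data set 2 than to its own.

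Of the 81 respiratory genes, 37 overlap another annotated gene, 12 of them on the same strand and 25 with a gene that was counted. Ndufa11 overlaps Vmac by 256 bases on the opposite strand, and Vmac had 11.7 to 67.4 CPM. The median cell had UMIs from 49 of the 81 genes in adult cTEC 1 and from 63 to 67 in the other 7 libraries.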
